A study of Mus musculus with 10 samples.

Results

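Purine nucleotide genes of mouse liver were followed through starvation: 6 genes of synthesis (Ppat, Gart, Paics, Adsl, Atic and Impdh2) and 4 of breakdown (Xdh, Uox, Pnp and Ada). They were chosen by symbol and make up 10 of 23420 gene rows. All 10 passed the filter on low counts that left 12796 tested genes. The livers came from male C57BL/6 mice aged 4 months, of which 5 received standard chow and 5 were fasted for 48 hours with water freely available. Each library is numbered 1 to 5 within its group, and the labels name no transgene or other agent. Levels are counts per 1000000 reads in genes, scaled between libraries by the trimmed mean of M values (CPM). The labels speak of 5 pairs of mice without saying which libraries form a pair. The p-values set the difference between the groups against the spread of the 5 libraries within each group.

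Purine nucleotides are built step by step on phosphoribosyl pyrophosphate until inosine monophosphate (IMP) is formed, from which the adenine and guanine nucleotides branch off. The liver is a main site of this synthesis and also breaks purines down, by way of inosine, hypoxanthine and xanthine, to urate. In mice, unlike in humans, urate oxidase in liver peroxisomes then turns urate into a product that is passed on to allantoin. Ppat starts the pathway, Gart and Paics carry several of the middle steps, Adsl acts both before IMP and in the adenine branch, Atic makes IMP, and Impdh2 opens the guanine branch. Ada turns adenosine into inosine, Pnp splits inosine and guanosine, Xdh makes xanthine and urate, and Uox removes urate.

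In starved liver 1 of the 10 genes rose, Adsl (1.83-fold), and 2 fell, Uox (0.579-fold) and Xdh (0.792-fold). The other 7 were not called by edgeR's quasi-likelihood test at an adjusted p under 0.05. Of all tested genes 38.6% were called, 18.6% as higher and 20.0% as lower, so that 3 of 10 called is near the share among all genes. Fed and starved libraries did not overlap for these 3 genes, as for 29.9% of all tested genes (13.2% higher and 16.7% lower). None of the 3 changed 2-fold or more, while 13.2% of all tested genes were called with a change of that size. Paics, Ppat and Pnp varied more among starved than among fed livers, and their values depended on which starved libraries were included. Starved libraries lay farther apart over all tested genes too. Their median root mean square log2 distance to the others of the group was 0.509 to 0.938, against 0.341 to 0.368 for fed libraries. Without starved libraries 2 and 4, Impdh2 and Pnp were called as higher beside Adsl, and Ppat as lower beside Xdh and Uox. Over all tested genes, 2647 were then called as higher and 2705 as lower, against 2379 and 2555 with all libraries.

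The promoters of Ppat and Paics are shown because these neighbours are transcribed in opposite directions from starts that lie 276 bases apart, and those of Adsl and Uox because these genes changed the most. Each runs from 250 bases before to 50 bases after the RefSeq start (GRCm38.p6), 5′ to 3′ on the strand of the gene, and capitals mark the E-box CACGTG, the letters bound by MYC and related factors. The windows are chr5:76951529-76951828 on the minus strand for Ppat, chr5:76951052-76951351 on the plus strand for Paics, chr15:80948240-80948539 on the plus strand for Adsl and chr3:146596899-146597198 on the plus strand for Uox.
Ppat: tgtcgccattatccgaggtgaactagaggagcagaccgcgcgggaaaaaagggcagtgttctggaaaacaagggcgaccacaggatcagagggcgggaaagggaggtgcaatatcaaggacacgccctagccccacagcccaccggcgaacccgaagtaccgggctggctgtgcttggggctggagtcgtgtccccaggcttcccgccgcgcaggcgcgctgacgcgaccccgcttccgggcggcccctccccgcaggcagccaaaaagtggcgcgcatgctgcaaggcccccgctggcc
Paics: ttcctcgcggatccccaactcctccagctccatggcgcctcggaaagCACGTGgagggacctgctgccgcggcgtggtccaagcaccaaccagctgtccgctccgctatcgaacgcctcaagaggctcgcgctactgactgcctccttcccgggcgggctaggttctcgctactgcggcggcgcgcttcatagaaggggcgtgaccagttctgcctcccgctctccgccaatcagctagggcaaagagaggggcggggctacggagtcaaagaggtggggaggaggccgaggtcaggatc
Adsl: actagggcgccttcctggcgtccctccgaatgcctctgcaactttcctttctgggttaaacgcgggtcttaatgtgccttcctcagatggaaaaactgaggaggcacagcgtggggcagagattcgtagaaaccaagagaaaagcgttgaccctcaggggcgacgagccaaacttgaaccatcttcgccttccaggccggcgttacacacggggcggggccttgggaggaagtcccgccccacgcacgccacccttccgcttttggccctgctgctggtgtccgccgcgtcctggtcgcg
Uox: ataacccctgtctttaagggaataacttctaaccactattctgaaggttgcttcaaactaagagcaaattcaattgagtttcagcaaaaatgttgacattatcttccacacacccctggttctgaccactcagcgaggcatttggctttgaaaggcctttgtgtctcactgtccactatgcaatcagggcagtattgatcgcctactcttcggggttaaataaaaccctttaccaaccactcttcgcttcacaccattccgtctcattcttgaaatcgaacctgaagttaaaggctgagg

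The Paics window holds 1 E-box, whose first base is at −203 from the start, and the Ppat, Adsl and Uox windows hold none. The whole Paics window, with this E-box, lies inside the Ppat gene model, downstream of the Ppat start and outside the Ppat window. The RefSeq start of Uox, at 146597149, lies inside the Uox gene model, which begins at 146570426. The Uox window therefore does not cover the start of that model. The same holds for Pnp (RefSeq start 50944303, gene model from 50931082). RefSeq windows were found for 9 of the 10 genes, and 3 of these held an E-box, the others being Impdh2 (at −110) and Atic (at −7). Of 32851 windows of the same length, 7.15% held the motif, which reads the same on both strands. Searched on both strands, the cyclic AMP response element TGACGTCA (in 1.79% of windows), the palindromic glucocorticoid response element (0.00913%) and the direct-repeat PPAR response element (0.0396%) were in none of the 9. The motifs do not overlap each other in these windows, and a match is a match of letters only.

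**Figure D1:**
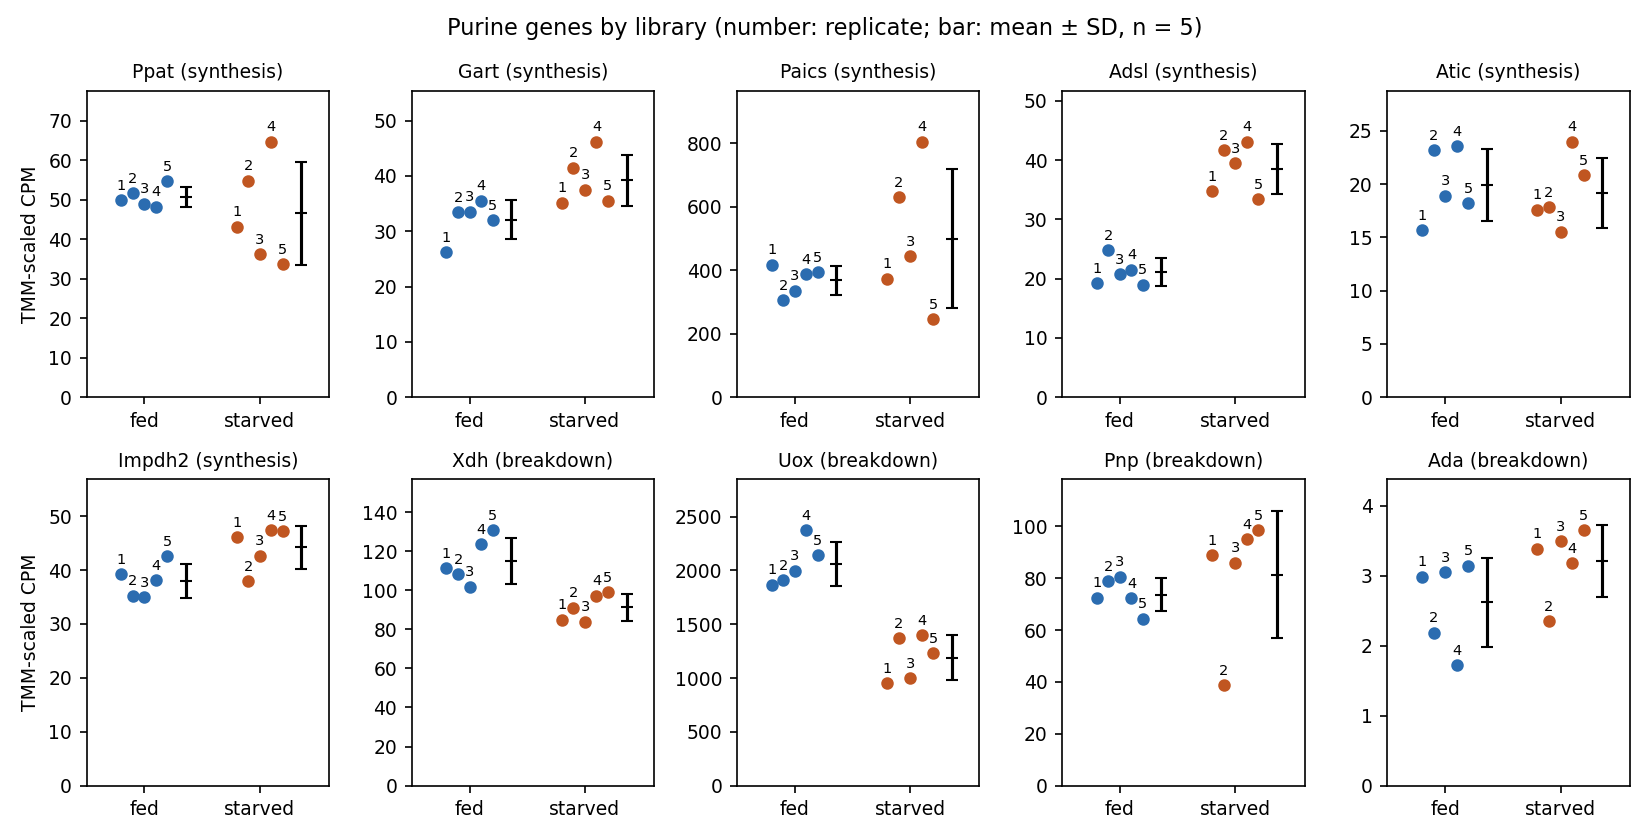
TMM-scaled CPM (vertical axis, linear from 0) of the 10 purine genes in 5 fed (blue) and 5 starved (orange) libraries, numbered by replicate, with mean ± SD beside each group. Adsl is higher and Uox and Xdh are lower in every starved library than in any fed library, and the starved libraries spread widely for Paics, Ppat and Pnp.

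Ppat, the amidotransferase of the first committed step, lies on chromosome 5 (76913249 to 76951578, minus strand, GRCm38, which is mm10). Its level in fed libraries 1 to 5 was 49.8, 51.6, 49.0, 48.3 and 54.7 CPM, and in starved libraries 1 to 5 it was 43.2, 54.8, 36.2, 64.7 and 33.7 CPM. Starved libraries 2 and 4 stood above all fed libraries, while starved libraries 1, 3 and 5 stood below all of them. The mean was 50.7 ± 2.58 CPM (SD, n = 5) in fed and 46.5 ± 13.0 CPM in starved liver, a log2 fold change of −0.12 ± 0.17 (SE; 95% interval −0.48 to 0.24) with an adjusted p of 0.583 in edgeR's quasi-likelihood test. Without starved libraries 2 and 4, which had the largest distances to the others of their group over all genes, the log2 fold change of Ppat was −0.40 (edgeR adjusted p = 0.00566). These are the same 2 libraries that stood above all fed libraries for Ppat, and they were chosen with earlier results of these data known. This p-value is therefore no independent evidence of a fall.

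Paics, the enzyme that carboxylates and then joins aspartate to the growing ring, begins beside Ppat on the plus strand (chromosome 5, 76951307 to 76967509). Fed libraries 1 to 5 had 418, 305, 336, 387 and 394 CPM, and starved libraries 1 to 5 had 374, 630, 444, 806 and 247 CPM. Both the highest and the lowest of the 10 values were in starved livers, and the coefficient of variation was 12.5% among fed and 44.0% among starved libraries. The log2 fold change of 0.44 ± 0.26 (95% interval −0.13 to 1.01) did not pass the test (edgeR adjusted p = 0.199). Paics passed it without starved library 5 (log2 fold change 0.62, edgeR adjusted p = 0.0394), and without starved libraries 2 and 4 its log2 fold change was −0.03.

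Libraries high in Paics were not all high in Ppat. In each fed library 5.92 to 8.38 reads of Paics were counted for each read of Ppat, and in starved libraries 1 to 5 the figures were 8.66, 11.5, 12.2, 12.4 and 7.31, a ratio that library scaling does not touch. Starved libraries 1, 2, 3 and 4 lay above all fed libraries in this ratio, and starved library 5 lay within their range. The gene models share 272 exonic bases at their 5′ ends on opposite strands, and the strand setting used for counting is not given in the sources used here.

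**Figure D2:**
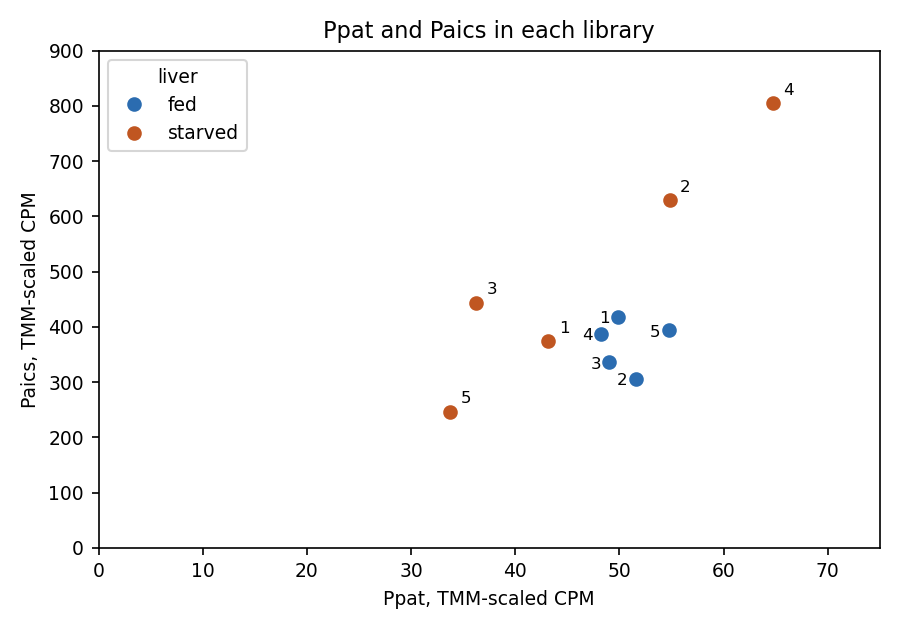
Paics against Ppat, both in TMM-scaled CPM on linear axes, in each of 10 libraries, numbered by replicate. The fed libraries (blue) lie close together, whereas the starved libraries (orange) run from 33.7 CPM of Ppat and 247 CPM of Paics in library 5 to 64.7 and 806 CPM in library 4.

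Gart, which combines several middle steps in a single protein, lies on chromosome 16 (91621186 to 91646952, minus strand). It stood at 26.2, 33.4, 33.5, 35.5 and 32.0 CPM in fed libraries 1 to 5 and at 35.2, 41.5, 37.5, 46.2 and 35.5 CPM in starved libraries 1 to 5. Starved library 1 fell just below the highest fed library, so the groups overlapped there. The log2 fold change of 0.29 ± 0.12 (95% interval 0.04 to 0.54) did not pass (edgeR adjusted p = 0.0667). It passed with relative log expression factors (edgeR adjusted p = 0.0493) and with DESeq2's Wald test (adjusted p = 0.0323). An antisense gene model, Gm15964, shares 1014 exonic bases with Gart. The models of Ppat, Adsl and Xdh overlap 2310040G07Rik, Gm6612 and CT025731.2 with no shared exonic base.

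Adsl, the lyase that acts before IMP and again in the making of adenosine monophosphate, lies on chromosome 15 (80948490 to 80970946, plus strand). Its levels were 19.2, 24.9, 20.7, 21.5 and 19.0 CPM in fed libraries 1 to 5, and 34.8, 41.7, 39.5, 43.1 and 33.4 CPM in starved libraries 1 to 5. Every starved library was above every fed library, and the coefficient of variation was alike, 11.2% in fed and 11.1% in starved liver. Adsl rose from 21.1 ± 2.37 to 38.5 ± 4.26 CPM (log2 fold change 0.87 ± 0.11, edgeR adjusted p = 0.000246). The rise was called in all 20 alternatives, with log2 fold changes of 0.72 to 0.94.

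Atic, which makes IMP, lies on chromosome 1 (71557150 to 71579631, plus strand). Levels in fed libraries 1 to 5 were 15.7, 23.2, 18.9, 23.6 and 18.2 CPM, and those in starved libraries were 17.6, 17.9, 15.5, 23.99 and 20.9 CPM. The ranges covered each other almost entirely. The log2 fold change was −0.05 ± 0.15 (95% interval −0.38 to 0.27, edgeR adjusted p = 0.799), so that changes larger than these bounds lie outside the interval while smaller ones do not.

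Impdh2, the dehydrogenase that commits IMP to guanine nucleotides, lies on chromosome 9 (108560286 to 108565584, plus strand). Fed libraries 1 to 5 had 39.2, 35.2, 35.0, 38.1 and 42.6 CPM, and starved libraries 1 to 5 had 46.1, 37.9, 42.6, 47.4 and 47.2 CPM. Starved libraries 1, 4 and 5 exceeded all fed libraries, starved library 3 was level with the highest of them, and starved library 2 lay within the fed range. The log2 fold change was 0.22 ± 0.10 (edgeR adjusted p = 0.102), and it passed without starved library 2 (0.28, edgeR adjusted p = 0.0193), without starved libraries 2 and 4 (0.27, edgeR adjusted p = 0.0264) and with DESeq2's Wald test (adjusted p = 0.0373). Impdh2 shares 48 exonic bases with Ndufaf3 on the opposite strand, and it has a processed pseudogene, Impdh2-ps, so reads common to both would have been left uncounted as not unique. Impdh1, the other form of the enzyme, was low at 1.18 ± 0.303 and 1.02 ± 0.373 CPM and was not called (edgeR adjusted p = 0.614).

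The median log2 fold change was 0.25 over the 6 synthesis genes and −0.10 over the 4 breakdown genes, against 0.0035 over all tested genes. Starved library 4 was the highest of the 5 starved libraries for all 6 synthesis genes. Over all tested genes it was the highest starved library in 15.7%. Starved library 2 was the lowest starved library for Impdh2, Pnp and Ada, and for 35.8% of all tested genes. Myc, a transcription factor known to activate purine synthesis genes, stood at 0.994 to 2.43 CPM in fed libraries and at 4.59, 51.3, 4.33, 18.2 and 6.14 CPM in starved libraries 1 to 5, so that libraries 2 and 4 were the highest for Myc as they were for Ppat, Paics, Gart and Adsl, but not for Atic, where library 5 was above library 2, nor for Impdh2, where library 2 was the lowest. Over all tested genes library 2 was the highest starved library in 32.8%. Atf4 and Max, listed as regulators beside Myc, also had libraries 2 and 4 as the highest starved libraries, while Mtor did not. Of 4 regulators of these pathways Myc was the 1 called. It rose by a log2 fold change of 3.38 ± 0.70 (edgeR adjusted p = 0.00319), or 1.64 without these 2 libraries, and its part in the levels of the purine genes was not tested.

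Uox, the urate oxidase, was the most abundant of the 10 genes and lies on chromosome 3 (146570426 to 146632305, plus strand). Its levels in fed libraries 1 to 5 were 1868, 1910, 1997, 2375 and 2140 CPM, and in starved libraries 1 to 5 they were 954, 1371, 999, 1398 and 1232 CPM. The highest starved library was below the lowest fed library. Uox fell from 2058 ± 206 to 1191 ± 206 CPM (log2 fold change −0.79 ± 0.14, edgeR adjusted p = 0.00152), and was called in all 20 alternatives at −0.95 to −0.72. Without starved libraries 2 and 4 the value was −0.94. Dnase2b overlaps the Uox gene model on the opposite strand, shares no exonic base with it, and rose (log2 fold change 0.59 ± 0.16, edgeR adjusted p = 0.0146).

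Xdh, the xanthine dehydrogenase that makes urate, lies on chromosome 17 (73883895 to 73950196, minus strand). Fed libraries 1 to 5 had 111, 108, 102, 124 and 131 CPM, and starved libraries 1 to 5 had 85.0, 91.0, 83.8, 97.1 and 98.9 CPM. The gap between the groups was small, since the highest starved library was just under the lowest fed library. Xdh fell from 115 ± 11.8 to 91.2 ± 6.87 CPM (log2 fold change −0.34 ± 0.10, edgeR adjusted p = 0.0207). Its call was lost without fed library 4 (edgeR adjusted p = 0.0557), fed library 5 (edgeR adjusted p = 0.0587) or starved library 3 (edgeR adjusted p = 0.0503).

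Pnp, the purine nucleoside phosphorylase, lies on chromosome 14 (50931082 to 50965237, plus strand). Levels were 72.6, 78.9, 80.6, 72.3 and 64.3 CPM in fed libraries 1 to 5, and 88.9, 38.7, 86.0, 95.0 and 98.6 CPM in starved libraries 1 to 5. Starved library 2 was the lowest of all 10, and the other 4 starved libraries were above every fed library. With all libraries the log2 fold change was 0.14 ± 0.21 (95% interval −0.31 to 0.60, edgeR adjusted p = 0.608), and without starved library 2 it was 0.33 and passed the test (edgeR adjusted p = 0.0107). The neighbouring paralogue Pnp2 stood at 0.293 ± 0.0598 and 0.491 ± 0.222 CPM and did not pass the low-count filter. The annotated Pnp model spans Pnp2 and shares 718 exonic bases with another model, Gm49342, so the split of reads among them is uncertain. On the opposite strand Gm38316 shares 356 exonic bases with Pnp.

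Ada, the adenosine deaminase, was the least abundant of the 10 genes, with 44 to 88 reads in each library, and lies on chromosome 2 (163726584 to 163750239, minus strand). It measured 2.99, 2.19, 3.05, 1.72 and 3.14 CPM in fed libraries 1 to 5 and 3.38, 2.35, 3.49, 3.18 and 3.65 CPM in starved libraries 1 to 5. Starved libraries 1, 3, 4 and 5 were above all fed libraries, and starved library 2 was within their range. The log2 fold change of 0.30 ± 0.20 (95% interval −0.14 to 0.73) was not called (edgeR adjusted p = 0.25).

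**Figure D3:**
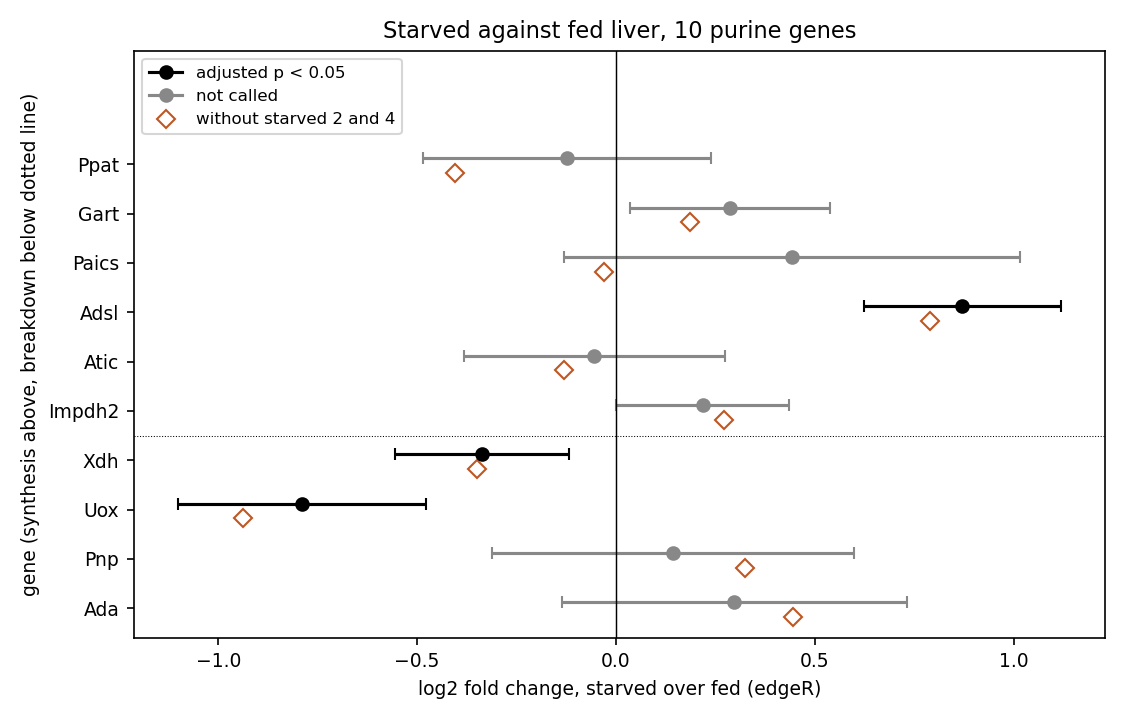
Log2 fold change of starved over fed liver for the 10 genes, with 95% intervals as bars (circles, black where the edgeR adjusted p is under 0.05), and the value without starved libraries 2 and 4 (open diamonds). Adsl lies to the right of 0 and Uox and Xdh to the left with or without these libraries, while the value for Paics drops from 0.44 to −0.03.

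Per kilobase of exon, the order of levels in fed liver was Uox (752 CPM per kilobase), Paics (148), Xdh (25.0), Pnp (23.9), Impdh2 (20.5), Ppat (12.7), Gart (9.13), Atic (7.0), Adsl (5.67) and Ada (1.55). The ranges of the 5 fed libraries overlapped for the neighbours Xdh and Pnp, Pnp and Impdh2, Gart and Atic, and Atic and Adsl, and did not overlap for the other neighbours. In starved liver the order was Uox (435 CPM per kilobase), Paics (201), Pnp (26.4), Impdh2 (23.8), Xdh (19.8), Ppat (11.7), Gart (11.1), Adsl (10.4), Atic (6.74) and Ada (1.90). There the neighbours Pnp and Impdh2, Impdh2 and Xdh, Ppat and Gart, and Gart and Adsl overlapped. Xdh thus came after Pnp and Impdh2 in starved liver and before them in fed liver, and Adsl passed Atic.

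**Figure D4:**
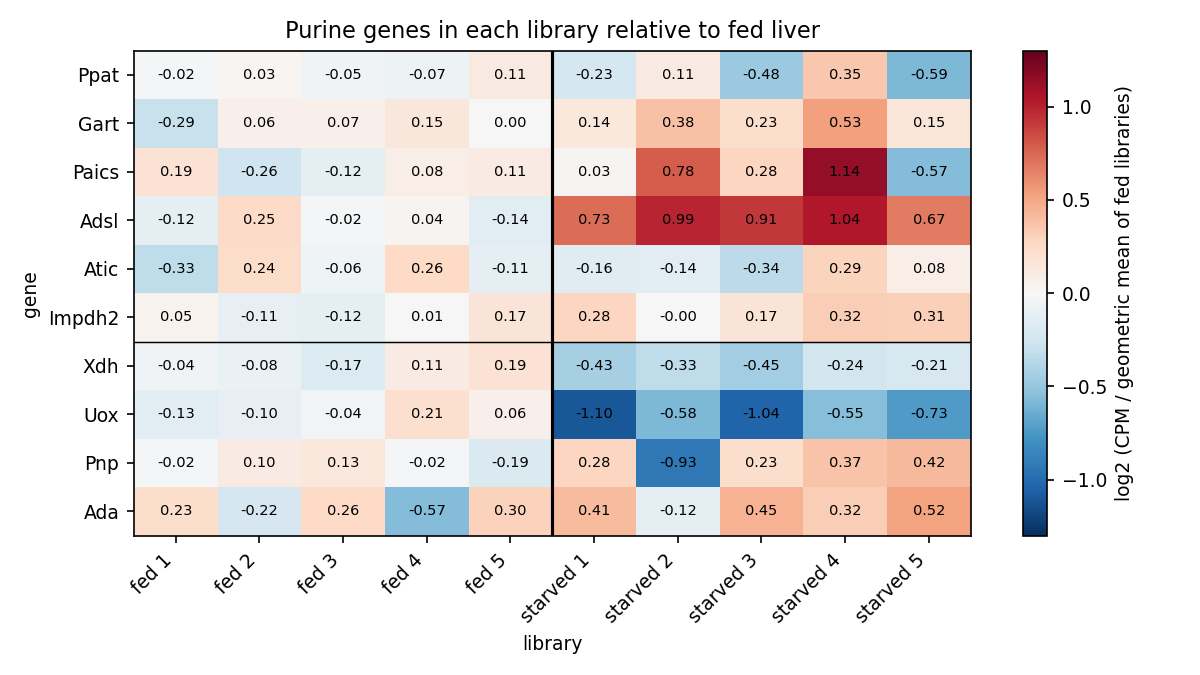
Level of each gene (rows) in each library (columns) relative to the geometric mean of the 5 fed libraries, as log2 (red higher, blue lower, values printed). Adsl runs from 0.67 to 1.04 and Uox from −1.10 to −0.55 across the starved libraries, whereas Paics runs from −0.57 to 1.14 and Pnp is at −0.93 in starved library 2.

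By the root mean square difference of log2 profiles over the 10 libraries, each centred on its own mean, Impdh2 and Ada were nearest to each other (0.209) and Gart was nearest to Impdh2 (0.21). The nearest to Paics was its neighbour Ppat (0.354), but the nearest to Ppat was Xdh (0.268). Adsl and Uox were the farthest apart (0.851). These distances describe 10 libraries in 2 groups and carry no test.

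Around these genes, the other enzymes of synthesis and of the supply of phosphoribosyl pyrophosphate numbered 10, of which 2 rose and 2 fell (median log2 fold change 0.26). Gmps, which completes guanosine monophosphate after Impdh2, rose from 36.1 ± 2.60 to 62.3 ± 6.23 CPM (log2 fold change 0.79 ± 0.10, edgeR adjusted p = 0.000195) and did not overlap between groups. Adss, which works next to Adsl in the adenine branch, rose by 0.39 ± 0.10 (edgeR adjusted p = 0.0121), a call lost with library totals alone. Pfas, which acts before Paics, was not called (log2 fold change 0.25, edgeR adjusted p = 0.259). Prps1, a synthase of phosphoribosyl pyrophosphate, was not called either (0.28, edgeR adjusted p = 0.104), but passed without starved library 2 (0.36, edgeR adjusted p = 0.018) and without starved libraries 2 and 4 (0.24, edgeR adjusted p = 0.0352). Prps2, the other main form of that synthase, fell from 18.6 ± 1.36 to 5.77 ± 1.47 CPM (log2 fold change −1.70 ± 0.16). Prpsap2, a protein associated with it, fell by 0.39 on the log2 scale, a call lost in 7 of 20 alternatives, among them those without fed library 1, 2, 4 or 5 or starved library 4.

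Of 5 salvage genes, whose enzymes return free bases and nucleosides to nucleotides, 2 rose and 1 fell. Aprt, which recovers adenine, rose from 31.2 ± 3.87 to 72.4 ± 10.4 CPM (log2 fold change 1.22 ± 0.12, edgeR adjusted p = 5.35e-05). Hprt, which recovers hypoxanthine and guanine ahead of Xdh, rose from 47.8 ± 5.15 to 69.0 ± 8.33 CPM (0.53 ± 0.12, edgeR adjusted p = 0.00418). Dck, a deoxynucleoside kinase, fell (−1.52 ± 0.34), and Adk, the adenosine kinase that competes with Ada for its substrate, was abundant at 868 ± 62.2 and 987 ± 120 CPM and was not called (edgeR adjusted p = 0.231), except without starved libraries 2 and 4 (log2 fold change 0.29, edgeR adjusted p = 0.0426).

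Among 19 other genes placed with breakdown, 14 were tested, of which 3 rose and 3 fell (median −0.12). Gda, the guanine deaminase, which feeds xanthine to Xdh, fell from 39.0 ± 3.48 to 14.95 ± 4.4 CPM (log2 fold change −1.38 ± 0.19), and Ampd2, a deaminase of adenosine monophosphate, by 0.73 on the log2 scale. Aox3, an aldehyde oxidase of the same cofactor family as Xdh and not itself a step of purine breakdown, fell from 369 ± 40.1 to 87.1 ± 42.1 CPM (−2.08 ± 0.27). The nucleotidases Nt5m and Nt5c2 rose by 0.77 and 0.60 and the deaminase gene Ampd3 by 0.58, the last losing its call in 12 of 20 alternatives, 8 of which left out a single library. Ampd3 was scarce, at 0.901 ± 0.150 and 1.35 ± 0.282 CPM. Urah and Urad, the enzymes that follow Uox on the way to allantoin, are listed under the older names 1190003J15Rik and Prhoxnb. Urah stood at 262 ± 18.9 and 223 ± 43.3 CPM (edgeR adjusted p = 0.195) and Urad at 41.2 ± 2.34 and 45.1 ± 10.6 CPM (edgeR adjusted p = 0.512), so neither was called beside the fall of Uox, though Urad was called as higher without starved libraries 2 and 4 (log2 fold change 0.38). Allc, the allantoicase, had no read in any library.

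Of 6 tested nucleotide kinases 2 fell and 0 rose (median −0.32), among them Ak4, an adenylate kinase, by 1.12 on the log2 scale. Of 11 tested nucleoside and urate transporters and adenosine receptors 2 rose and 4 fell (median −0.49). Slc2a9, the urate transporter of liver that delivers urate to Uox, fell from 38.2 ± 6.63 to 17.4 ± 3.57 CPM (log2 fold change −1.14 ± 0.17, edgeR adjusted p = 0.000449), and Slc17a3, another organic anion and urate carrier, fell from 54.9 ± 4.32 to 18.9 ± 10.4 CPM (−1.54 ± 0.34). Slc29a3, a nucleoside carrier, fell from 3.10 ± 0.820 to 1.56 ± 0.255 CPM, and Adora1, an adenosine receptor, rose by 0.95. Of 11 tested genes of the folate cycle, which supplies carbon to Gart and Atic, 2 rose and 2 fell (median −0.07). Mthfd1l, scarce at 0.803 ± 0.298 and 2.09 ± 0.939 CPM, rose by 1.39, a call lost with a replicate block. Its level in starved library 5 (0.638 CPM) lay within the fed range (0.431 to 1.10 CPM). Ftcd rose by 0.68, while Shmt1 fell by 0.77 on the log2 scale. The call of Shmt1 was lost without fed library 4, and without starved libraries 2 and 4 its log2 fold change was −0.41. Mthfd2 was scarce, with 0.534 ± 0.165 and 0.518 ± 0.130 CPM (edgeR adjusted p = 0.854).

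**Figure D5:**
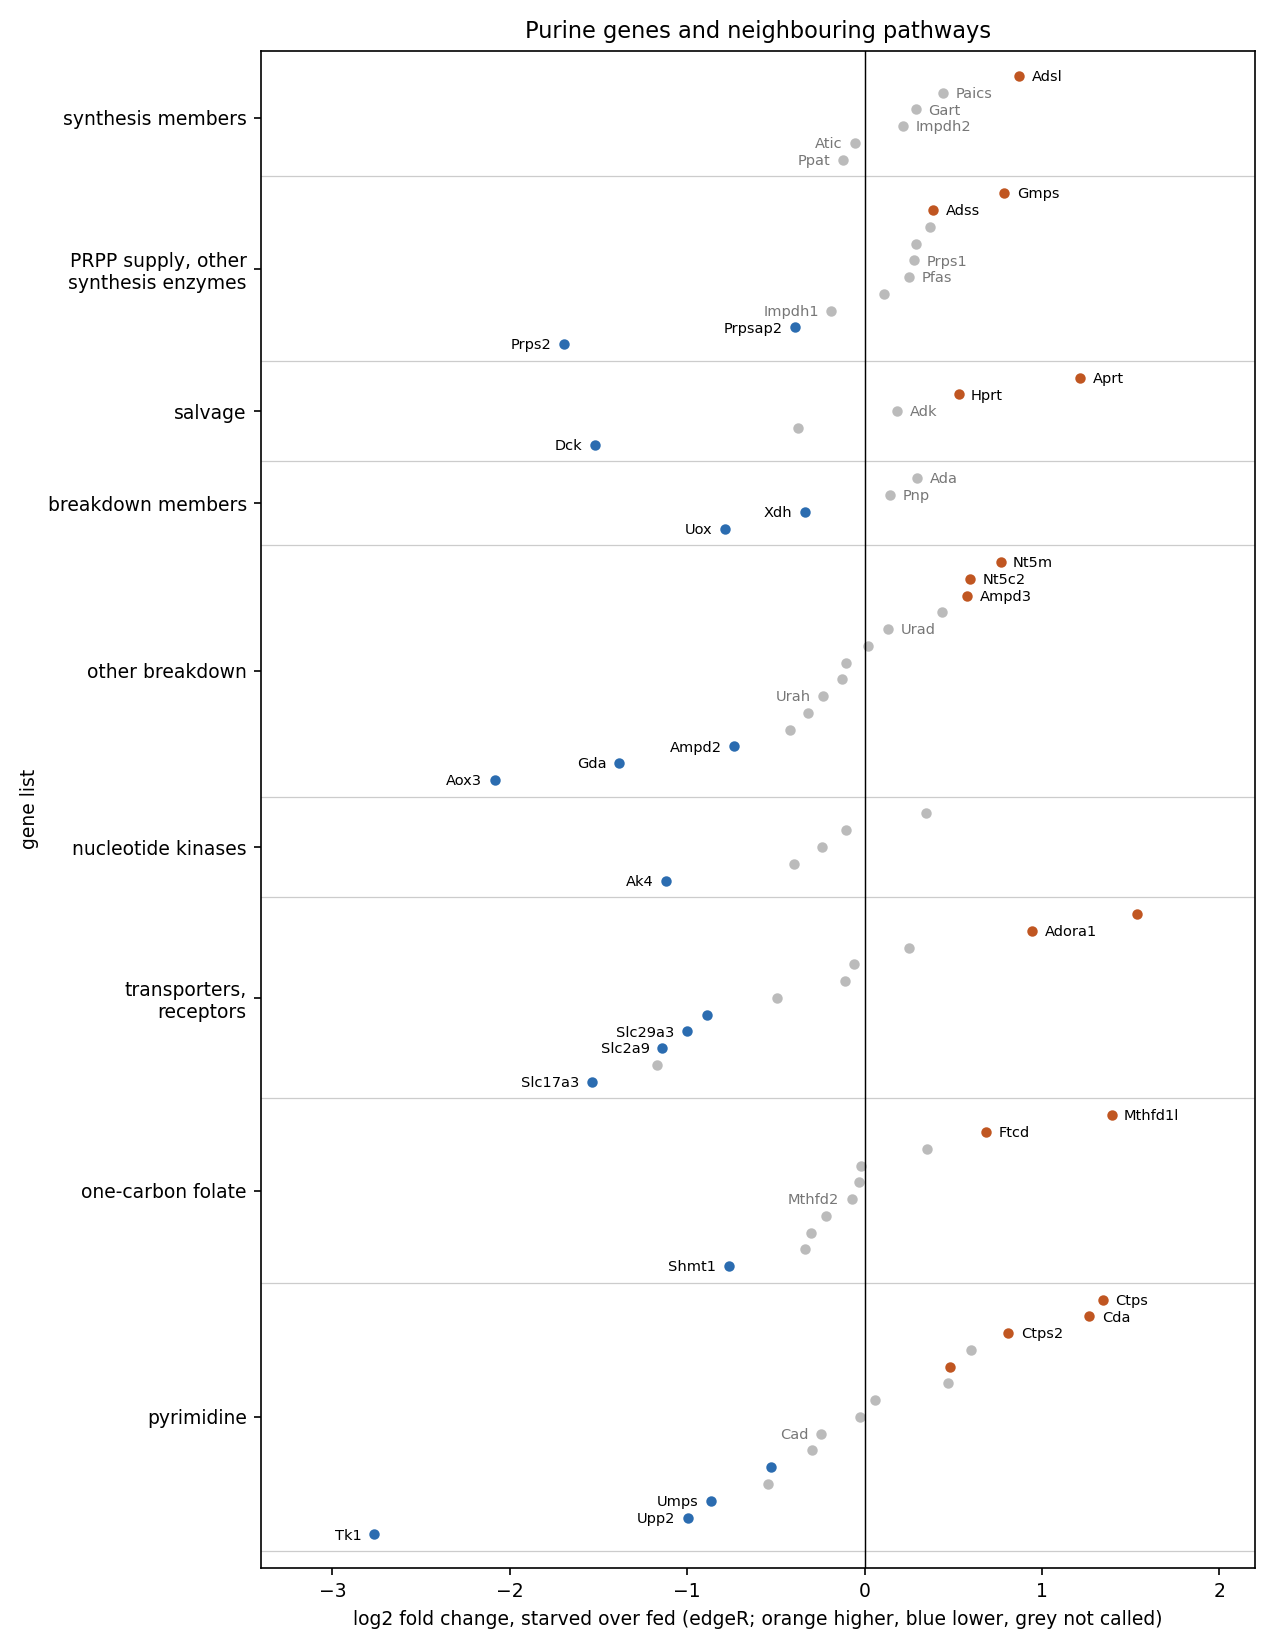
Log2 fold change of starved over fed liver for tested genes of 9 lists, of which those named in the text carry their symbols and 2 are not shown, with genes called as higher in orange, as lower in blue and the rest in grey. PRPP is phosphoribosyl pyrophosphate. Called genes lie on both sides of 0 in most lists: Adsl, Gmps and Aprt to the right but Prps2 and Dck to the left in synthesis and salvage, and Uox, Gda and Slc2a9 to the left but Nt5m, Nt5c2 and Adora1 to the right in breakdown and transport.

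In whole liver, fewer cells of a type and less RNA per cell cannot be told apart. Alb, the main secreted product of hepatocytes, had a fed mean of 82740 ± 14124 CPM and a starved mean of 94215 ± 20087 CPM, and of 7 hepatocyte markers 2 rose and 1 fell (summed level 88967 to 132390 and 113340 to 174190 CPM). Of 8 tested Kupffer cell and macrophage markers 7 fell, their summed level being 370 to 604 CPM in fed and 141 to 303 CPM in starved libraries. Lymphocyte markers, 2 of 7 of which fell, summed to 20.5 to 31.2 and 9.36 to 17.8 CPM, and of 8 endothelial markers 5 fell and 1 rose (273 to 323 and 218 to 276 CPM). All 3 tested neutrophil markers rose (1.76 to 3.65 and 2.78 to 22.2 CPM), 2 of 3 erythroid markers fell (454 to 649 and 167 to 599 CPM), 1 of 6 stellate markers rose and 1 fell (394 to 454 and 418 to 619 CPM), and 1 of 5 cholangiocyte markers fell (46.3 to 57.2 and 14.96 to 40.6 CPM). Most of the cholangiocyte sum was Spp1, the marker that fell (means 47.2 and 24.2 CPM). Krt19, Krt7, Epcam and Sox9, all scarce, were not called. Single genes also made up most of the lymphocyte sum (Ptprc, 19.0 and 9.98 CPM), the stellate sum (Dcn, 263 and 370 CPM) and the erythroid sum (Beta-s, 524 and 284 CPM, not called). Hba-a1, Hba-a2 and Hbb-b1 were at 0 in all libraries. Xdh and Uox fell and Adsl rose beside these shifts, whose part in the levels of the purine genes was not tested.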

How the data were processed

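Total RNA of 10 livers was sequenced after strand-marking TruSeq preparation, per the labels. Build mm10, edgeR 3.6.4, HTSeq, CASAVA 1.8.2, Bowtie2 2.0.0 and TopHat2 2.0.0 are listed in the submitters' processing notes. The sources used here do not give the annotation, the version of HTSeq or its strand setting. Each deposited file is 1 library's unnormalized read count for every gene symbol. HTSeq's tallies of unassigned reads (58.2% to 68.8% of each file's total, mostly reads aligned to several places at 38.6% to 48.4%) stayed out of library sizes and tests. Reads in genes came to 18197194 to 29941358 per library. No same-group pair matched within sampling noise (chi-square per degree of freedom 11.9 to 284).

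From these counts, genes were kept by filterByExpr, scaled by TMM and compared in R 4.3.3 by the quasi-likelihood test of edgeR 4.0.16. The p-values of all 12796 tested genes were adjusted together (Benjamini-Hochberg). DESeq2 1.42.0, limma 3.58.1 (voom), other scalings and filters, a replicate block and left-out libraries were alternatives. "Rose" and "fell" mean an adjusted p under 0.05. The fit was tested on simulated data with 200 changed genes. It recovered 14% of 1.5-fold, 60% of 2-fold and 94% of 4-fold changes, and called 7 of 12596 unchanged genes. All 2-fold changes there were decreases and all 4-fold changes increases. These shares do not give the power in the real data, where far more genes (38.6% of those tested) were called. The purine genes, lists, motifs and the leaving out of starved libraries 2 and 4 were chosen with earlier results of these data known. Outside the 10 genes, named are a fixed set and, per list, the called genes that changed the most, at most 3 per direction, at 1 CPM or more in the higher group. Coordinates, overlaps and exon lengths are GENCODE's (GRCm38), exon lengths over transcripts with a consensus coding sequence, and promoters RefSeq's (GRCm38.p6). Some listed symbols were matched through RefSeq's synonyms. The values of 2 list genes are not reported here.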

Additional observations from a re-analysis of the deposited data

Results flagged for a closer look

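The level of Pnp in starved library 2, 38.7 CPM, lay far below the next lowest starved library (86.0 CPM), the gap being 0.789 of the range of the 5 starved libraries against a 95% critical value of 0.71. Of 20 gene and group combinations examined 1 passed this limit, and chance gives about 1 in 20.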

How the results depend on the processing

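Starved library 2 had the largest median distance to the other libraries of its group over all tested genes (root mean square log2 difference 0.938), followed by starved library 4 (0.613), against 0.341 to 0.54 for the other 8. Over all tested genes, 1490 were higher with library totals alone (2379 with TMM), a scaling that moved the median gene by −0.157 (log2) and left 29.9% of calls higher in place of 48.2%. With a threshold of 0.01, 1272 were higher and 1526 lower (2555 at 0.05). The number of purine genes called as higher, 1 with TMM and the quasi-likelihood test, was 2 with relative log expression factors, 3 with DESeq2, 3 without starved libraries 2 and 4, and 1 to 3 with single libraries left out. Over all tested genes the number called as higher was 2529 with relative log expression factors, 2846 with DESeq2 and 2647 without starved libraries 2 and 4. With single libraries left out it was 1868 to 2766. The number of purine genes called as lower, 2, was 1 at a threshold of 0.01 and 1 to 2 with single libraries left out. It was 3 without starved libraries 2 and 4, where 2705 of all tested genes were called as lower. The cause was not tested. The log2 fold change of Paics was −0.031 without starved libraries 2 and 4, that of Atic 0.00533, 0.0122 and 0.014 without fed library 2, fed library 4 and starved library 3 (−0.132 to 0.014 over all single libraries left out), that of Prhoxnb (Urad) −0.0157 with library totals alone, and that of Mthfd2 0.142, 0.0967 and 0.154 without fed library 4, starved library 4, and starved libraries 2 and 4 (−0.161 to 0.142 over single libraries), each opposite in sign to the value with TMM and all libraries. Of 30 called genes among 38 chosen from the lists, 24 kept their call in every alternative, which were run for these genes after the data were seen. With a replicate block 1 purine gene was higher (Adsl, log2 fold change 0.871) and 2 were lower (Uox, −0.802, and Xdh, −0.334), and over all tested genes 2029 were higher and 2381 lower. The labels do not say that equal numbers mark a pair of mice. Deviations of same-numbered libraries correlated at −0.0453 to 0.198, above 0.1 in 1 of 5 pairs, and 2 of 5 starved libraries correlated best with their own number. Ada, at 44 to 88 reads per library, is the purine gene most limited by depth.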

Other observations

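Pyrimidine genes, counted beside the purine genes, gave 4 higher and 4 lower of 15 tested (median log2 fold change −0.02). Tk1, the thymidine kinase of dividing cells, fell from 41.8 ± 7.52 to 6.20 ± 4.16 CPM (log2 fold change −2.76 ± 0.43, edgeR adjusted p = 0.000665). Upp2, a liver uridine phosphorylase, fell from 689 ± 125 to 346 ± 143 CPM, and Umps, which completes uridine monophosphate, fell by 0.86 on the log2 scale. Ctps and Ctps2, the synthases of cytidine triphosphate, rose by 1.34 and 0.81, the latter by 0.41 without starved libraries 2 and 4. Cda, the cytidine deaminase, rose by 1.27, or 0.55 without starved libraries 2 and 4, a call lost in 6 of 20 alternatives, which included leaving out fed library 1, 2 or 5, or starved libraries 2 and 4 together. Cad, the enzyme that opens pyrimidine synthesis as Ppat opens that of purines, stood at 6.67 ± 1.48 and 5.63 ± 0.896 CPM and was not called (edgeR adjusted p = 0.284).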
